A study of Mus musculus with 4 samples.

Results

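The small intestine of Cftr-null mice given lubiprostone (CF + lubiprostone) was compared with that of wild type mice given lubiprostone (WT + lubiprostone), as the ratio of their array signals. A probe set was used when it carried 1 gene symbol and reached at least the median signal of the array on either of these 2 arrays. A gene's value is the mean log2 ratio over its probe sets. This left 11792 of the 18194 genes that have such a probe set, and the other 6402 were too dim on both arrays to be used. At the edge of this filter, Hoxb4 was just inside with a signal of 119.58 in the CF pool, which is the median of that array, and Mrln was just outside with a signal of 122.52 in the WT pool.

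The series consists of 4 Affymetrix Mouse430 2.0 arrays, 1 for each combination of genotype (WT, CF) and treatment (control, lubiprostone). Each array was hybridized with RNA of the entire small intestine pooled from the mice of 1 group, namely 7 mice for WT + lubiprostone and 8 mice for CF + lubiprostone. The treated mice received lubiprostone by gavage once daily at 10 µg/kg for 2 weeks, suspended in the liquid diet Peptamen, while the control mice are labelled as having no treatment. The control pools are labelled as holding 10 mice each, although the study's methods give a smaller number for WT.

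The CF mice carried the Cftr-tm1Unc null allele in every cell of the body from conception, on a strain labelled C57BL/6 (C57BL/6J in the study's methods), and the WT mice were their littermates from heterozygous parents. All mice of all groups were fed Peptamen, so that no group shows the intestine on solid food. Ages and sexes of the pooled mice are not given in the sources used here. The signal of Xist, the RNA that coats the inactive X chromosome of females, was 1716 in the treated CF pool and 1587 in the treated WT pool, a ratio of 1.04, whereas it was 2.21-fold higher in the CF control than in the WT control pool. The Y-linked genes Eif2s3y, Kdm5d and Uty had log2 ratios of −0.04, −0.13 and 0.23 in the treated pair. In the untreated pair 1 of the 4 sex-linked genes was above a ratio of 1 and 3 were below.

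Each group has a single pooled array, so no array difference below can be set against a spread between mice or between arrays. No test was possible. The study also measured some genes by quantitative RT-PCR on replicate samples of each group. Its findings are given below for those of them that are named here, and not for the others. "Higher" and "lower" describe these 2 pools only. The signal is an intensity in arbitrary units that was already scaled by the authors, with a median of 119.6 on the treated CF array and 122.5 on the treated WT array. A signal below the median of its array was read as no more than that median, and a fold that rests on one is written "at least". The only error that can be given is that between probe sets of the same gene on the same arrays, whose SD of the log2 ratio had a median of 0.22 over all genes and 0.14 among bright probe sets, those at or above the 75th percentile of an array. In RNA of a whole organ, fewer cells of a type and less RNA per cell cannot be told apart.

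CFTR is the chloride and bicarbonate channel in the apical membrane of intestinal crypt and villus cells, on which chloride-dependent fluid transport into the gut lumen relies. Without it the lumen is dehydrated and acidic, mucus accumulates between villi and in crypts, bacteria overgrow, and the tissue is in a state of innate immune activation. Lubiprostone is a fatty acid derived from prostaglandin E1 that was developed as an activator of the chloride channel ClC-2 and is used against constipation. The comparison asks which differences between CF and WT intestine are seen when both genotypes have the drug.

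Cftr was measured by 2 probe sets. The brighter gave a signal of 2506 in untreated and 2226 in treated WT mice, and of 620.2 in untreated and 715 in treated CF mice. The other gave 302, 159, 47.3 and 43.3 in the same order. Both were lower in both CF pools than in both WT pools, by 3.11-fold in the treated pair for the brighter probe set. Where these probes lie relative to the disrupted part of the gene was not established here, so that the residual signal does not measure intact transcript. Of the gene for the drug's proposed target, Clcn2, the signal was 1.30-fold higher in the treated CF pool, at 2040.4 against 1564 (log2 ratio 0.38).

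Most genes had nearly the same signal in the treated pools. The median log2 ratio was 0.00, with 5th and 95th percentiles of −0.83 and 0.79, and 93.4% of genes were within 2-fold. A ratio above 1 was found for 50.4% of genes and a ratio below 1 for 49.6%. At 3-fold, the threshold used by the study, 154 genes were higher in the CF pool, which is 1.31% of the genes measured, and 146 were lower, which is 1.24%. The lower signal was below the median of its array for 103 of the 154 and for 98 of the 146. Among the 7106 bright genes, 62 were higher by 3-fold or more (0.873%) and 63 were lower by as much (0.887%), and all probe sets of each of these bright genes pointed in 1 direction.

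The 15 bright genes with the highest ratios were led by secreted proteins of innate defence. Retnlb encodes RELMβ, a goblet cell protein made in response to microbes and helminths. Its signal was 2938 in the treated CF pool and 16.3 in the treated WT pool, which is below that array's median, so that it was at least 24.0-fold higher. Lrg1, a leucine-rich glycoprotein released in inflammation, was at 3399 against 123, which is 27.7-fold higher. Lcn2, the siderophore-binding protein lipocalin 2 that withholds iron from bacteria, was at 3514 against 135, or 26.0-fold higher.

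Saa3, an acute phase serum amyloid of epithelium and macrophages, was 16.7-fold higher at 2419 against 145. Pla2g4c, a cytosolic phospholipase A2 that frees fatty acids from membranes, was at 2416 against 108 and at least 15-fold higher. Ccl20, the chemokine that draws dendritic cells and lymphocytes to the epithelium, was 4.90-fold higher at 1913 against 390.4. Reg2, a lectin of the regenerating islet-derived family, was 6.78-fold higher at 1939 against 286.

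The other genes of this group have varied roles. Rasd1, a small GTPase first described as induced by dexamethasone, was at least 9.36-fold higher at 1146 against 112. Slfn2, a schlafen protein of lymphocyte quiescence, was 7.02-fold higher, and the pore-forming gasdermin gene Gsdmc2 was 6.27-fold higher. Probe sets that Gsdmc2 shares with its relatives were lowest in the treated WT pool. In the treated CF pool they were near the WT control level. Ly6d (6.00-fold), Wtip (5.70-fold), Mboat1 (at least 2.54-fold), the complement factor H relative Cfhr2 (at least 2.29-fold) and the pancreatic carboxypeptidase gene Cpa1 (5.03-fold) completed the 15. With dim signals set to the median, Mboat1 and Cfhr2 were the only genes among these and the 15 lowest that were no longer at 3-fold.

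The 15 bright genes with the lowest ratios were mainly absorptive and detoxifying genes of the villus. Cubn encodes cubilin, the ileal receptor for vitamin B12 bound to intrinsic factor. Its signal was 62.1 in the treated CF pool and 5021 in the treated WT pool, so that it was at least 41.1-fold lower, and both of its probe sets were at 156 or less on both CF arrays. Lct, the brush border enzyme lactase, was 10.2-fold lower at 1992 against 20420.1. The sodium-glucose cotransporter family genes Slc5a4a and Slc5a4b were lower as well, by at least 11.7-fold and at least 9.80-fold.

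Cyp2b10, a cytochrome P450 enzyme induced through the nuclear receptor CAR, was at least 19.0-fold lower, at 117 against 2618. Cyp2c55 was at least 13.8-fold lower at 112 against 1655. Cyp3a11, the main drug-oxidizing P450 of the mouse intestine, was 7.54-fold lower at 4396 against 33124, and its relative Cyp3a25 was 7.52-fold lower. Among glucuronosyltransferases, which attach glucuronic acid to drugs and steroids, Ugt2b5 was 9.21-fold, Ugt2a3 8.46-fold and Ugt2b38 at least 7.13-fold lower.

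Of the remaining 4, Plb1, the brush border phospholipase B, was at least 3.91-fold lower, and Acot12, an acyl-CoA thioesterase, at least 3.49-fold lower. Dio1, the deiodinase that activates thyroid hormone, was 8.24-fold lower at 264 against 2173. Vwce, a gene with von Willebrand factor and EGF domains, was at least 5.63-fold lower.

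**Figure D1:**
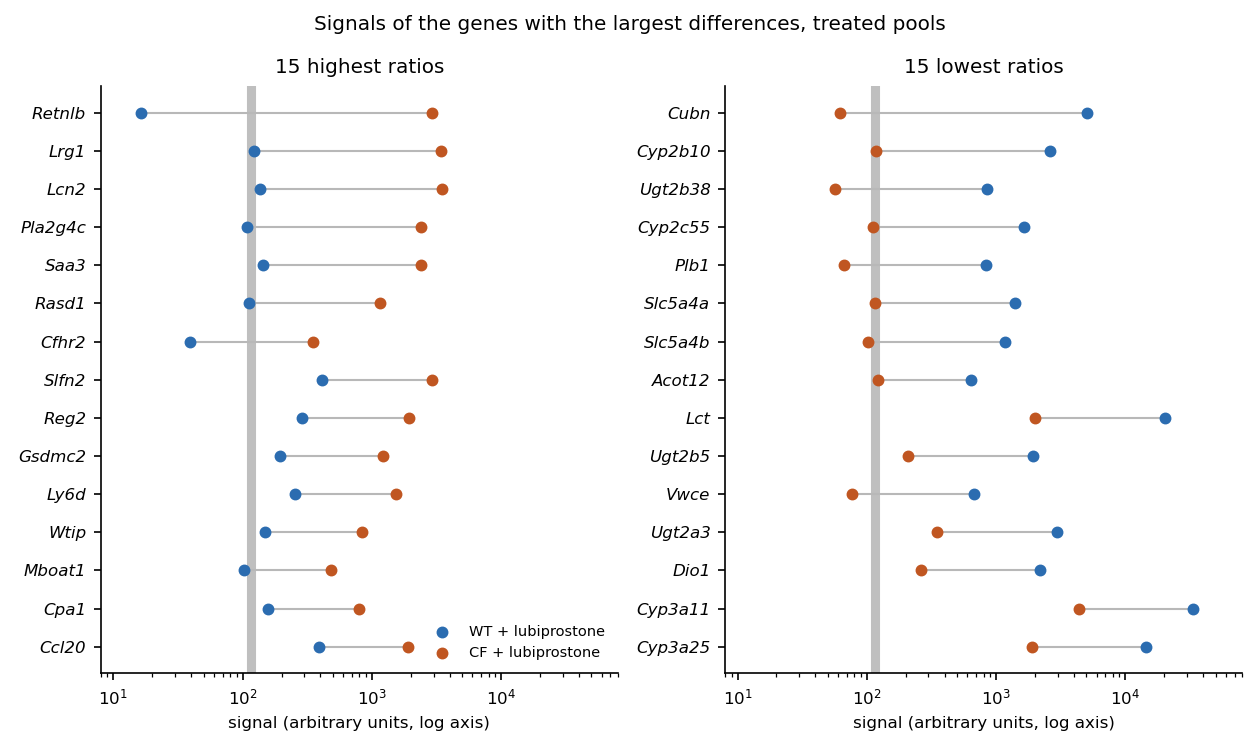
Signals of the 15 genes with the highest and the 15 with the lowest ratios in the pools of WT + lubiprostone (blue) and CF + lubiprostone (orange), on a log axis in arbitrary units, 1 array per group and so without error bars. The grey band spans the medians of the 4 arrays (109.4 to 123.8). The lower signals of Retnlb, Cfhr2, Cubn, Ugt2b38, Plb1 and Vwce lie well to the left of the band, and those of the other genes lie close to it or to its right.

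The gene lists used below were described by how many of their measured members lay above and below a ratio of 1, against the 50.4% and 49.6% of all genes, and by the median log2 ratio, against 0.00 for all genes. They were written with results of these arrays known, and a list's count is a description of these 2 pools.

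Genes of the acute phase and of epithelial inflammation were higher in the treated CF pool in 16 of 19 measured, with 7 at 3-fold and a median log2 ratio of 0.99. Beside Lrg1, Lcn2 and Saa3, the subunits of calprotectin, a zinc- and manganese-binding protein of neutrophils, were higher too, S100a9 by at least 2.04-fold and S100a8 by at least 2.96-fold. S100a9 had a signal of 249.5 in the treated CF and 5.14 in the treated WT pool. The neutrophil chemokines Cxcl5 (at least 1.85-fold) and Cxcl1 were the remaining genes at 3-fold as measured. The 3 probe sets of Cxcl1 ranged from a log2 ratio of 0.19 to one of 4.27, so that its mean of 1.75 depends on which of them is read.

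The antimicrobial lectin genes Reg3b and Reg3g lay at the top of the signal range, where a difference between pools may not be measurable. Reg3b had a signal of 46441 in CF and 44679 in WT, and Reg3g had 44809.8 against 39910, both near the highest signals on any array. Serum amyloid Saa1 was also close, at 8066 against 5731 (log2 ratio 0.49). In the control pools Saa1 stood at 7133 in CF and at 504 in WT, so that the treated WT pool was the one near both CF pools. Pigr, the receptor that carries immunoglobulin A into the lumen, had log2 ratio −0.04. With only bright probe sets, the list's median was 0.19.

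Interferon-stimulated genes were higher in the treated CF pool in 23 of 24, with 6 at 3-fold, none at 3-fold lower and a median log2 ratio of 0.97. In the control pools the median of the same genes was 0.31. Each of the 24 had a larger CF over WT ratio in the treated than in the untreated pair, against 51.3% of all 11317 genes measured in both. The only member with a ratio below 1 was Ube2l6, a ubiquitin-conjugating enzyme, at a log2 ratio of −0.16.

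Ifit2, which binds viral RNA and blocks translation, had signals of 360.3 and 399.9 in the control and treated WT pools, and of 488 and 1817 in the control and treated CF pools. The treated CF pool was thus 4.54-fold above the treated WT pool, and the 3 other pools were close to each other. Rsad2, the antiviral enzyme viperin, followed the same order with 519.7, 523, 752 and 2103, which is 3.88-fold between the treated pools. Its 3 probe sets ranged from 1.44 to 2.37 on the log2 scale.

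Usp18, the protease that removes ISG15 and dampens interferon signalling, was 3.95-fold higher at 3123 against 790.0. Mx1, a dynamin-like antiviral GTPase, was 3.57-fold higher at 499.9 against 139.9. Igtp, an immunity-related GTPase induced by interferon-γ, was 3.40-fold higher at 3960.1 against 1166, and Ifit1 was 3.17-fold higher at 6286 against 1983. For these 4 genes too the treated CF pool had the highest of the 4 signals. Outside the list, the chemokine genes Cxcl9 and Cxcl10, which respond to interferon-γ, had log2 ratios of 1.65 and 1.80. They are named because they were at 3-fold in this pair. Ido1, which interferon-γ also induces, was on the other side at −0.62.

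Genes that respond to interferon often carry the interferon-stimulated response element before their start, here searched as GAAA, any 2 bases and GAAA again, on either strand (TTTC, 2 bases and TTTC when read from the other) within the 250 bases upstream of the start in RefSeq's promoter sequences (build GRCm38.p6). Such a match was present for 936 of the 27025 genes with a promoter sequence, or 3.46%, and for 10 of the 19 measured list members that have one, or 52.6%. The 10 had a median log2 ratio of 1.28 and the other 9 had one of 0.45. A match is a run of letters and not evidence of binding. Of the 4 list members at 3-fold that have a promoter sequence, Ifit2 held no match, and the windows below show the match of the other 3 in capitals, each 120 bases long and written 5′ to 3′ on the strand of the gene. That of Ifit1 lies at chr19:34640755-34640874 on the plus strand, that of Rsad2 at chr12:26456483-26456602 on the minus strand and that of Igtp at chr11:58199436-58199555 on the plus strand. The first holds the element at 2 places and the others at 1 place each.
Ifit1: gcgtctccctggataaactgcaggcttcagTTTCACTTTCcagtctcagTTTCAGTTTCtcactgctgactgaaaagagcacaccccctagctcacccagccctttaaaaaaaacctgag
Rsad2: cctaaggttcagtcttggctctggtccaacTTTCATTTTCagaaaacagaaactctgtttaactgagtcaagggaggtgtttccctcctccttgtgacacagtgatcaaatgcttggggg
Igtp: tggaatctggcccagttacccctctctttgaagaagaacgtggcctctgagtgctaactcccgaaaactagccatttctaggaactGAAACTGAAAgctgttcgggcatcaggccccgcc

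Antigen presentation by MHC class II differed by less. Of its 10 measured genes, 8 were higher in the treated CF pool, none by 3-fold, and the median log2 ratio was 0.27, compared with −0.54 in the untreated pair. Cd74, the invariant chain, was at 11421 against 8521 (1.34-fold), and the H2-Eb1 chain at 5595 against 4542 (1.23-fold). In the control pools both had been lower in CF, with Cd74 at 8801 against 11101 in WT. The B lymphocyte marker genes Cd22 and Cd79a were lower in the treated CF pool, with log2 ratios of −0.75 and −0.82, while the plasma cell chaperone Mzb1 was at 0.95, and the 13 measured markers of both cell types together had a median of 0.02.

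Genes of the amino acid starvation response, which the transcription factor ATF4 drives when uncharged tRNA or endoplasmic reticulum stress halts translation, were higher in the treated CF pool in 13 of 16, with a median log2 ratio of 0.99 (0.37 in the untreated pair). Asns, which makes asparagine, was at 1093 in the control and 1367 in the treated WT pool, and at 3523 and 5388 in the matching CF pools. Both CF pools were thus above both WT pools, and the treated pair differed by 4.02-fold. Psat1, of serine synthesis, was 3.83-fold higher at 1061 against 289. Chac1, which degrades glutathione, was 4.21-fold higher at 785 against 187.

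Atf4 itself was 1.98-fold higher at 6300.0 against 3289, with its 2 probe sets at log2 ratios of 0.77 and 1.21. The serine and one-carbon genes Phgdh (2.25-fold), Psph (1.94-fold), Shmt2 (at least 1.80-fold) and Mthfd2 (2.24-fold) lay on the same side. Ddit3, the stress gene that encodes CHOP, did not, at a log2 ratio of −0.49 with probe sets from −1.01 to 0.02. The 20 measured genes of the endoplasmic reticulum folding list had a median of 0.07.

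The amino acid response element was searched as TGATGNAA on either strand (TTNCATCA) in the same windows. It was present for 1056 genes, or 3.91%, and for 2 of the 14 list members with a promoter sequence, Asns and Chac1, both of them at 3-fold. Psat1, the other member at 3-fold, held no match, and neither did Atf5 (log2 ratio 1.40) or Sesn2 (1.30). The windows, with the element in capitals and written on the strand of the gene, lie at chr6:7693210-7693329 on the minus strand for Asns and at chr2:119351019-119351138 on the plus strand for Chac1.
Asns: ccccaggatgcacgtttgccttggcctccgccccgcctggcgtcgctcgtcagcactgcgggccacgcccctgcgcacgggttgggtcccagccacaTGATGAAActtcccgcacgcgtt
Chac1: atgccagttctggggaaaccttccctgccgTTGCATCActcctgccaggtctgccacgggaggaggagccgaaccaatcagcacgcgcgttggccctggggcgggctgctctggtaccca

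Genes that glucocorticoids induce were higher in 15 of 17, with 3 at 3-fold and a median log2 ratio of 0.44, against −0.33 in the untreated pair. Fkbp5, the cochaperone that restrains the glucocorticoid receptor, was at 890.2 in untreated and 841 in treated WT, and at 1032 in untreated and 2736 in treated CF intestine. The treated CF pool stood alone, 3.68-fold above the treated WT pool. Tat, an amino acid catabolic enzyme of the liver, was 3.81-fold higher at 595 against 156, and Lcn2 is the third member at 3-fold.

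Pdk4, which turns off pyruvate oxidation, was 1.84-fold higher at 1655 against 900.3 in the treated pair, but lower in the untreated pair, at 198 in CF control against 1461 in WT control. Sgk1, the serum- and glucocorticoid-regulated kinase that raises sodium uptake, showed the same arrangement, with 8162 and 8529 in the 2 WT pools, 1994 in the CF control and 10327 in the treated CF pool. In both genes the CF control pool was the one apart from the rest. Of the immediate early genes, which respond within minutes to stress and handling, 15 of 16 were above a ratio of 1 with a median of 0.36, and the largest was Dusp1 at 2.07-fold.

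**Figure D2:**
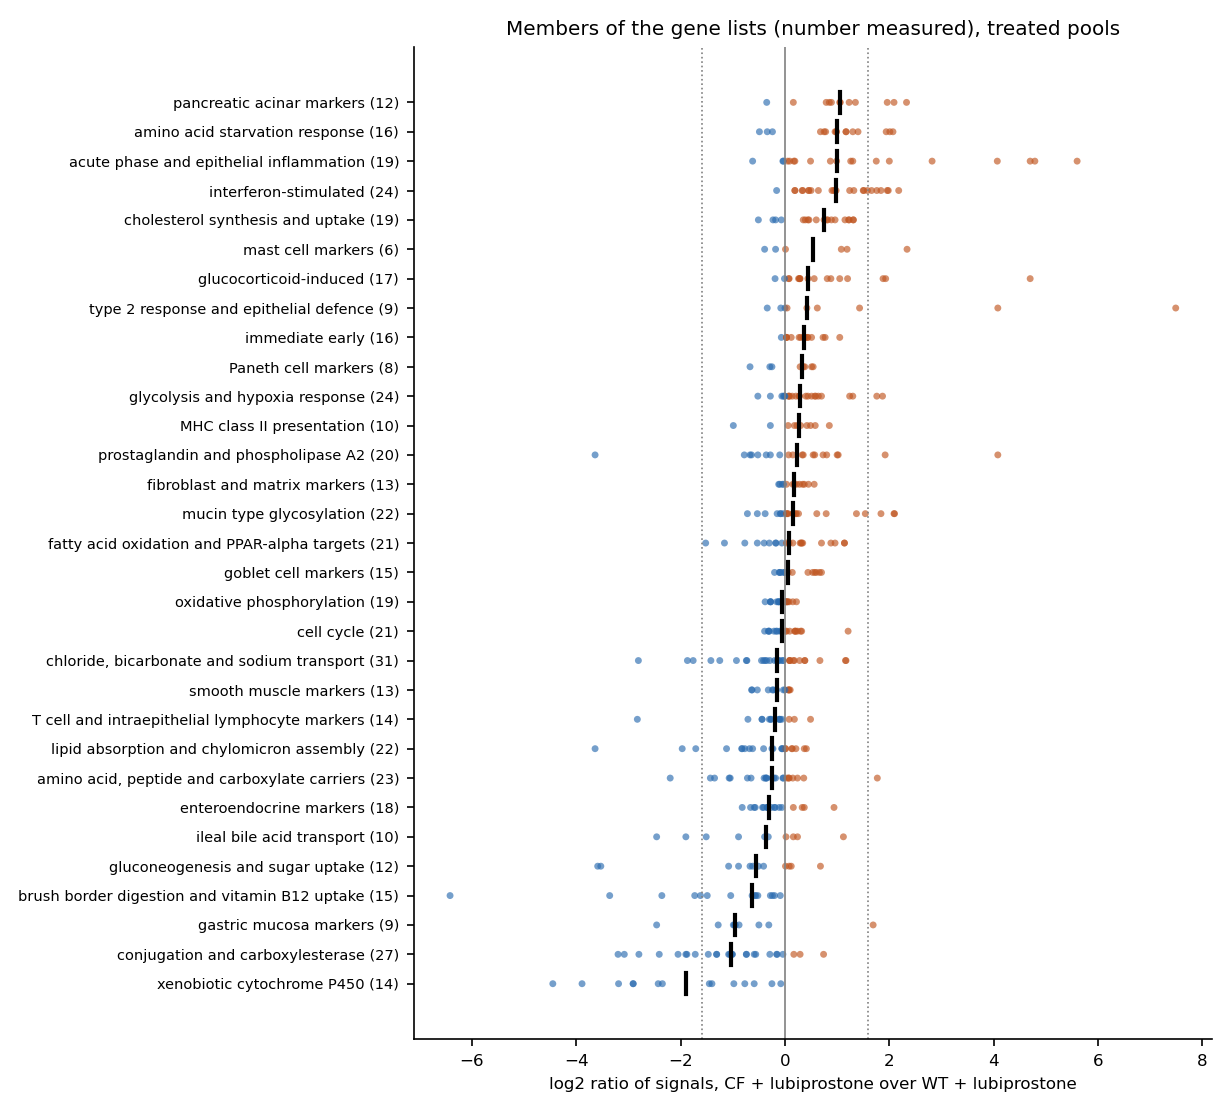
Each point is 1 measured gene of a list, placed by its log2 ratio of signals, CF + lubiprostone over WT + lubiprostone (orange above 0, blue below), with the number of genes in brackets, a black bar at the median, a solid line at 0 and dotted lines at 3-fold. Medians run from −1.90 for the xenobiotic P450 genes to 1.06 for the pancreatic acinar markers, and every P450 and brush border gene lies left of 0.

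Drug and steroid metabolism was the group with the lowest median. All 14 measured cytochrome P450 genes of xenobiotic metabolism were lower in the treated CF pool, 7 of them at 3-fold, with a median log2 ratio of −1.90 (−1.74 in the untreated pair). Beside the genes above, Cyp2c29 was at least 3.64-fold, Cyp2c68 5.41-fold and Cyp2c65 5.11-fold lower. Cyp2c65 had a signal of 2227 in the treated CF and 11386 in the treated WT pool. The smallest difference was that of Cyp3a13 at 19723 against 20775 (log2 ratio −0.08).

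Conjugating enzymes and carboxylesterases were lower in 24 of 27, with 8 at 3-fold and a median of −1.03. Ces2a, a carboxylesterase that opens prodrugs and acylglycerols, was 6.96-fold lower at 641 against 4459.5. Among glutathione S-transferases, Gstm3 was 5.32-fold lower at 986 against 5829.8 and Gsta4 3.73-fold lower at 2182 against 8136. Both differed less in the control pools, where Gstm3 was at 3237 in CF and 5414 in WT. The microsomal transferase Mgst1 was on the other side, at 22889 against 18737 (1.22-fold higher).

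The brush border genes of digestion and vitamin B12 uptake were lower in 15 of 15, with 5 at 3-fold and a median of −0.63. The size of the difference varied widely among enzymes of the same membrane. Lactase was 10.2-fold and the peptidase neprilysin (Mme) 5.14-fold lower, trehalase (Treh) was 3.08-fold and the peptidase Naaladl1 3.32-fold lower. Amn, the partner of cubilin in the B12 receptor, was 2.82-fold lower at 1435 against 4041.

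Others were close to equal. Maltase-glucoamylase (Mgam) was at 33006 in the treated CF and 35209.7 in the treated WT pool, a log2 ratio of −0.09, and villin (Vil1), a structural protein of microvilli, was at 20389 against 24067, a log2 ratio of −0.24. Alkaline phosphatase (Alpi) was 1.44-fold lower at 25303 against 36313.

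Of 12 genes of gluconeogenesis and sugar uptake, 8 were lower, 2 of them at 3-fold, and the median was −0.56, against −1.29 in the untreated pair. Apart from the Slc5a4 pair, the largest differences were in Fbp1 (2.11-fold lower at 2954 against 6232) and Pck1 (1.85-fold lower at 910.1 against 1794), which encode enzymes of glucose synthesis. Slc5a1, the main apical glucose carrier, was equal at 27116 against 27020.3. Slc2a5, the fructose carrier, was 1.60-fold higher.

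Genes of fat absorption were lower in 15 of 22, with 3 at 3-fold and a median of −0.24. Apoc3, an apolipoprotein that slows lipid clearance, was 3.93-fold lower at 3285 against 12912. Abca1, the cholesterol exporter of the basolateral membrane, was at least 2.82-fold lower. The apolipoprotein genes Apoa1 (−0.04) and Apoa4 (−0.06) and the fatty acid binding protein gene Fabp1 (0.13) were nearly equal on the log2 scale.

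The terminal ileum's bile acid pathway was uneven as well. Of its 10 measured genes 6 were lower, with a median of −0.36. Fabp6, the ileal bile acid binding protein, was 5.51-fold lower at 4150.3 against 22885. Slc10a2, the apical bile acid carrier, was at 670.2 against 602, and Slc51b, a subunit of the basolateral exporter, at 5194 against 4398. Slc51a, the other subunit of that exporter, was 1.86-fold lower at 4046 against 7507. Nr1h4, the bile acid receptor FXR, was 2.17-fold higher at 2292 against 1057. Fgf15, the hormone that bile acids induce, was at least 1.69-fold lower.

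Salt transport genes had a median of −0.15, with 20 of 31 lower. Pdzk1, a scaffold that holds apical carriers including CFTR and NHE3, was 7.01-fold lower at 831 against 5822. Slc9a3, which encodes the sodium-proton exchanger NHE3, was on the other side at 8049 against 3586 (2.24-fold higher), as was the membrane carbonic anhydrase Car4 (2.23-fold higher). Aqp3, a basolateral water channel, was at least 2.10-fold lower. The chloride-bicarbonate exchanger genes Slc26a3 and Slc26a6 were at log2 ratios of 0.09 and 0.16, and the basolateral Na-K-2Cl cotransporter gene Slc12a2 was at −0.20.

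Among carriers of amino acids, peptides and carboxylates, 16 of 23 were lower with a median of −0.25. Slc6a20a, the proline carrier, was lower at 1837 against 8457 (log2 ratio −2.20). Slc6a14, a broad amino acid carrier, was at least 3-fold higher at 376 against 108.

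Cholesterol synthesis and uptake was higher in the treated CF pool in 15 of 19, none by 3-fold, with a median of 0.75. The signals of Sqle (squalene epoxidase), which with Fdft1 had the largest ratio, were 768 without and 1169.6 with the drug in WT mice, and 3911 without and 2892 with it in CF mice, which is 2.47-fold in the treated pair. Both CF pools were above both WT pools. The untreated pair had the larger ratio in 18 of the 19 genes, as in 48.7% of all genes, and a median of 1.17. Dhcr7, the last enzyme of the pathway, was 1.42-fold lower in the treated pair.

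Of 24 genes of glycolysis and the hypoxia response, 18 were higher with a median of 0.28. Hk2, a hexokinase, was 3.65-fold higher at 3569.5 against 978, and Adm, the vasodilator adrenomedullin, at least 2.69-fold higher. Of the genes of fatty acid oxidation and PPAR-alpha targets, 12 were higher and 9 lower with a median of 0.08, but the untreated pair had a median of −0.67, and the ratio was larger in the treated pair in 21 of 21. Acot1, an acyl-CoA thioesterase, was at 1386 against 715 in the treated and at 116 against 747 in the untreated pair. Acaa1b, a peroxisomal thiolase, was lower in both.

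Enzymes of mucin type glycosylation had a median of 0.15, with 15 of 22 higher and 3 at 3-fold. Chst4, a sulfotransferase that modifies mucin sugars, was 4.27-fold higher at 2915 against 682. Fut2, the fucosyltransferase of the gut surface, was at least 4.10-fold higher at 612 against 120.1, and B3galt5 at least 3.45-fold. The goblet cell markers had a median of 0.06, with 8 of 15 higher, none at 3-fold. Muc2, the gel-forming mucin, was at 19013 against 17206. By quantitative RT-PCR the study found no significant difference in Muc2 between any of its groups. The bright members Spink4 (28255 against 17361) and Zg16 (35993 against 38142) lay on opposite sides.

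Prostaglandin and phospholipase A2 genes had a median of 0.24. Beside Pla2g4c and Plb1, 1 more reached 3-fold, Pla2g5, a secreted phospholipase A2, which was 3.78-fold higher at 511 against 135. Hpgd, which inactivates prostaglandin E2, was 1.72-fold lower at 2161 against 3999. The prostaglandin receptor Ptger4 for prostaglandin E2 had a log2 ratio of 0.35.

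**Figure D3:**
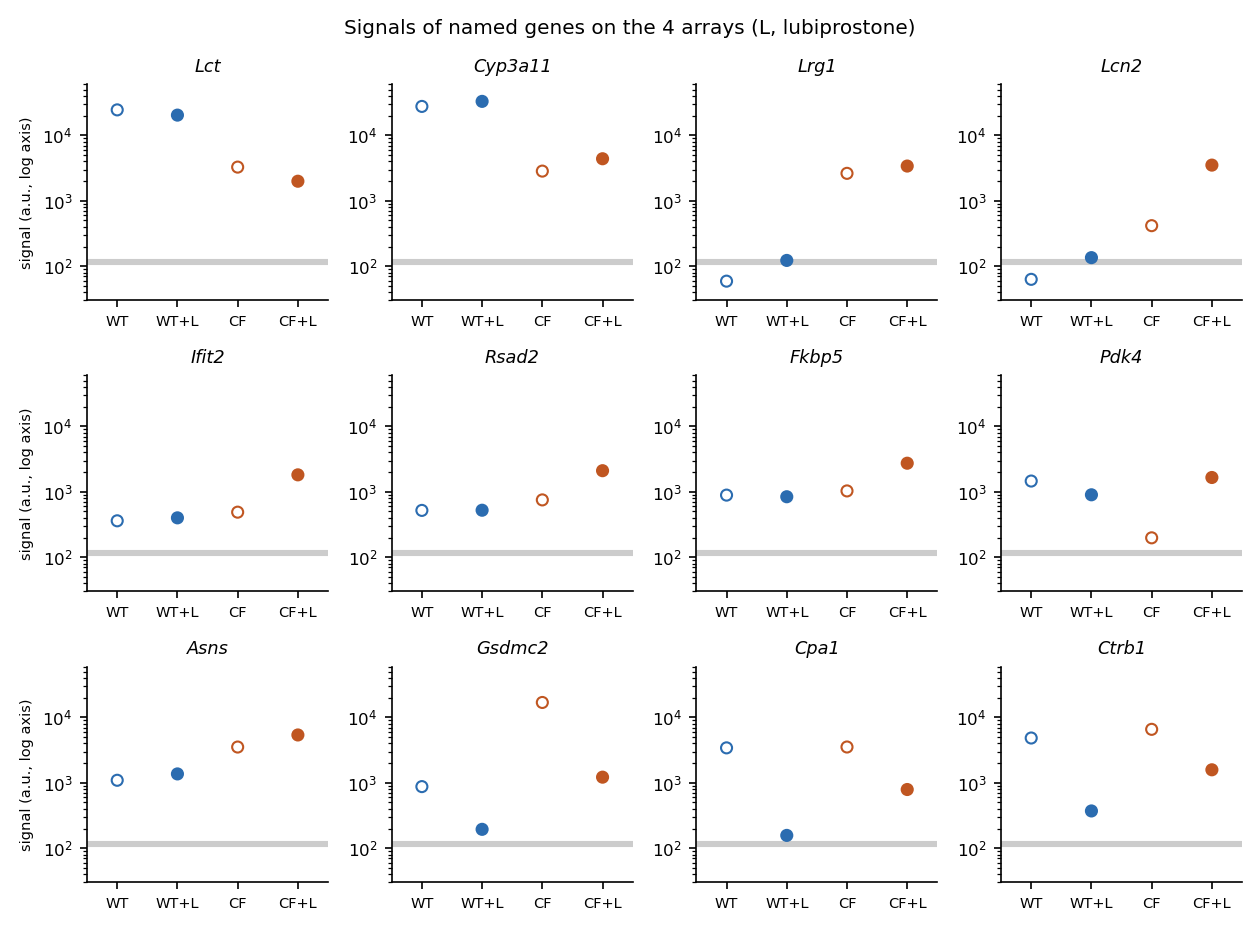
Signals of 12 named genes on the 4 arrays (log axis, arbitrary units, 1 pooled array per point, L for lubiprostone, open circles for controls and filled circles for treated pools, grey band for the medians of the arrays). Lct and Cyp3a11 are low in both CF pools, Ifit2, Rsad2 and Fkbp5 are high in the treated CF pool alone, Pdk4 is low in the CF control pool alone, and Cpa1 and Ctrb1 are lowest in the treated WT pool.

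Markers of other cell types were compared because the pools are of whole tissue. The largest shift was in pancreatic acinar enzymes, which do not come from the intestine. Of the 12 measured of 18 listed markers, 11 were higher in the treated CF pool, 3 at 3-fold, with a median of 1.06. Their summed signal was 41594 in WT control, 45580.4 in CF control, 9223 in WT + lubiprostone and 13499.7 in CF + lubiprostone, so that both treated pools were below both controls and the WT pool was the lowest. Cpa1 had 3422, 3528, 157 and 789.8 in that order. Ctrb1 and Cpb1 are the other 2 at 3-fold. The part of adhering pancreas in other differences between the pools was not tested, and none of the markers was at 0.

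Mast cell markers were mostly too dim to be measured, with 6 of 15 on the list at or above the median in either treated array and a summed signal of 1474 in the treated CF and 1077 in the treated WT pool, against 10648 and 1443 in the controls. Mcpt1, a protease of mucosal mast cells, was at least 3.07-fold higher at 376 against 74.2, and in the CF control pool it stood at 5798. The median of the 6 was 0.54, and −0.01 with dim signals set to the median. Mcpt2 was 2.12-fold higher at 297 against 140.4. The mast cell carboxypeptidase gene Cpa3 had a log2 ratio of 1.19 as measured, Gata2 one of 0.01 and Slc18a2 one of −0.18. The mast cell receptor gene Kit, which interstitial cells of Cajal also express, was 1.31-fold lower.

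Gastric markers lay on the other side, with 8 of 9 lower and a median of −0.95. Tff2, a trefoil peptide of the stomach and duodenal glands, was at 11259.8 in the treated CF and 20743 in the treated WT pool. Anxa10 was the exception, 3.22-fold higher. The summed signal was 19292.6 in WT control, 9927.4 in CF control, 36233 in WT + lubiprostone and 19289.9 in CF + lubiprostone. The treated WT pool was thus the highest, and the treated CF pool was near the WT control. In the untreated pair the median log2 ratio was 0.30, with 4 members above a ratio of 1 and 3 below. The part of gastric tissue in other differences between the pools was not tested.

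Lymphocyte, muscle and nerve markers were closer to equal. T cell and intraepithelial lymphocyte markers were lower in 11 of 14 with a median of −0.19, and Cd3e was the 1 of them at 3-fold as measured, at 20.4 against 145, which is at least 1.22-fold with the dim signal at the median. Smooth muscle markers had a median of −0.16 and the enteroendocrine markers one of −0.30, with the neurotensin gene Nts at 900.3 against 1590.1. Paneth cell markers had a median of 0.32 and fibroblast and matrix markers one of 0.18. In the untreated pair the medians were −0.69 for T cell, 0.31 for smooth muscle, −0.45 for enteroendocrine, 0.51 for Paneth cell and 0.66 for fibroblast markers. The treated ratio was smaller for 13 of 13 smooth muscle and 12 of 13 fibroblast markers, against 48.7% of all genes. It was larger for 13 of 14 T cell markers, against 51.3% of all genes.

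Several other lists had medians near 0, between −0.15 and 0.09. These were the cell cycle, crypt stem cell and Wnt target, circadian clock, oxidative phosphorylation, heat shock, endoplasmic reticulum folding, fatty acid synthesis, gasdermin and calpain, and reference gene lists. Among the gasdermins and calpains 7 genes were higher and 7 lower, and beside Gsdmc2 the dim gene Gsdma2 was at 162.7 against 39.5 (at least 1.33-fold higher). The crypt stem cell and Wnt target list had 8 genes lower and 5 higher. Ascl2, a transcription factor of crypt stem cells, was at 89.9 against 229.6 (at least 1.80-fold lower). Lgr5 (log2 ratio −0.74) and Olfm4 (−0.75) were also lower, whereas Cd44 (0.71) and Ephb3 (0.73) were higher. The summed signal of that list was 16155.7 in the treated CF and 21479.2 in the treated WT pool. Rrm2, a subunit of the enzyme that makes deoxynucleotides, was above the other cell cycle genes at 2472 against 1032, a log2 ratio of 1.21. Actb was at a log2 ratio of 0.09 and Gapdh at 0.16.

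The untreated pools give a second comparison of CF with WT that shares no array with the treated one. With the same filter applied to that pair, 135 genes had a 3-fold or larger ratio of CF over WT (1.14% of 11806 genes) and 215 were lower in CF by 3-fold or more (1.82%). Of the 154 genes higher in the treated pair, 109 could be measured in the untreated pair, 92 of these were also above a ratio of 1 there, and 46 were at 3-fold in both, which is 29.9% of the treated and 34.1% of the untreated list. Of the 146 lower, 116 could be measured, 107 were below 1 and 73 were at 3-fold in both, which is 50% of the treated and 34.0% of the untreated list.

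Among bright genes the directions were shared more often. Of 62 that were higher, 58 were above a ratio of 1 in the untreated pair, which holds 48.4% of all genes, and 34 reached 3-fold there. Of 63 that were lower, 62 were below 1 there, which holds 51.6% of all genes, and 55 reached 3-fold. Both pairs have in common the genotype, the diet and the strain, and the sex and age of the mice in each pool are not known. Xist was higher in the CF control than in the WT control pool but nearly equal in the treated pools. The part of an unlike mix of sexes in differences between the pairs was not tested.

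**Figure D4:**
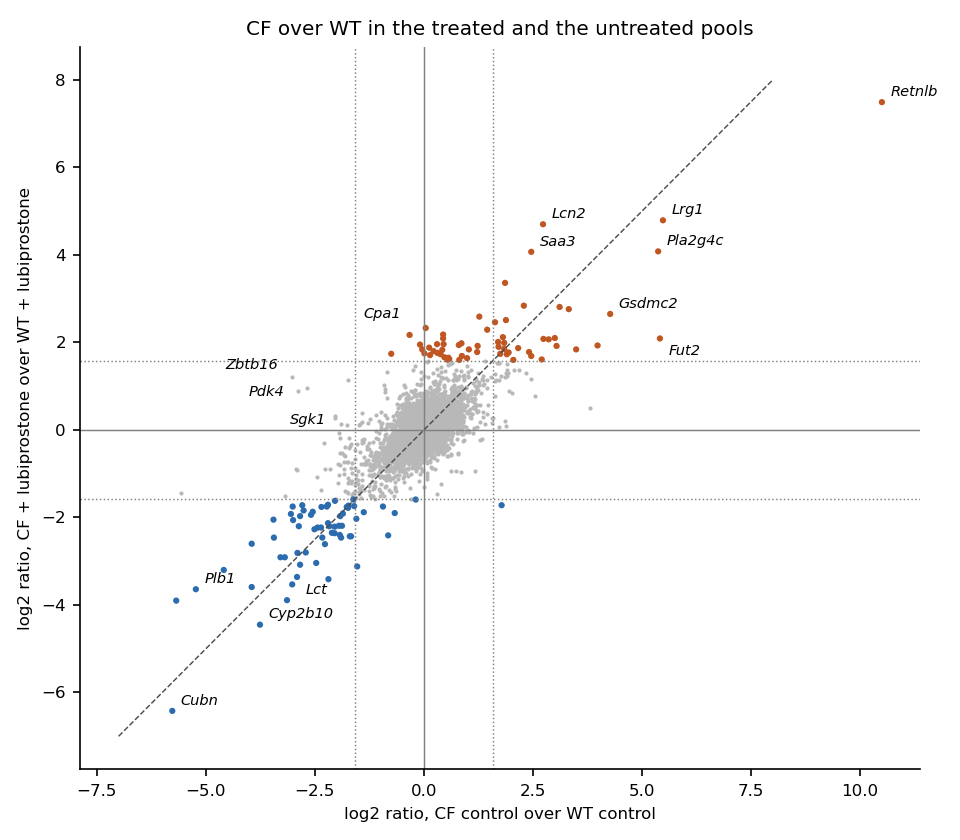
Each point is 1 of 7106 bright genes, with the log2 ratio of CF over WT in the control pools across and that in the lubiprostone pools up. Coloured points are the 125 genes at 3-fold or more in the treated pair (orange higher, blue lower), dotted lines mark 3-fold, and the dashed line marks equal ratios. Cubn, Cyp2b10, Lct, Lrg1 and Retnlb lie far from 0 in both pairs, whereas Zbtb16, Pdk4 and Sgk1 are far below 0 in the control pools only.

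There were 20 bright genes that were at least 3-fold higher in the treated pair and under 1.5-fold higher in the untreated pair. They include Ifit1, Ifit2, Rsad2, Mx1 and Igtp of the interferon list, the chemokine genes Cxcl1, Cxcl9 and Cxcl10, the ubiquitin-like gene Ubd (log2 ratio 1.95 against −0.09), Fkbp5, the plasminogen activator gene Plat (1.73 against 0.38), and the 3 acinar genes Cpa1, Ctrb1 and Cpb1. In the other direction there were 2. They were Pigs and Them4, each with 2 probe sets that differed widely, from −3.25 to −0.19 for Pigs and from −2.98 to −0.19 for Them4.

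The 2 sets of genes that the study's tables list as altered by lubiprostone in CF mice were chosen on these arrays, so that their values here are not independent of that choice. Of the first table's genes, 11 of 17 could be measured, 9 were above a ratio of 1 in the treated pair and 5 were at 3-fold, with a median of 1.19 against 3.49 in the untreated pair. Retnlb, Pla2g4c, Gsdmc2, Mcpt1 and B3galt5 are the 5. By quantitative RT-PCR the study reported Pla2g4c, Gsdmc2 and Mcpt2 as back at WT control levels in treated CF mice. For Retnlb it found no significant decrease with the drug. The reference there was untreated WT mice, not the treated WT pool used here. For Pla2g4c the arrays differ from the RT-PCR at that reference too. Its 2 probe sets were at 3989.1 and 842.0 in the treated CF pool, against 402.8 and 213.1 in the WT control pool. Capn13, a calpain of the same set, was at 204 against 220.4 in the treated and at 1737 against 201 in the untreated pair.

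Of the second table's genes, 8 of 11 were measured, with a median of 0.05 in the treated and −2.25 in the untreated pair and none at 3-fold. Slc13a2, a dicarboxylate carrier, was at 3339.9 against 3794 in the treated pair, and at 858 against 3245 in the control pools. Slc5a12, a lactate carrier, was the furthest from equal, at 277 against 748 (log2 ratio −1.43). By quantitative RT-PCR the study also found Slc5a12 lower in CF controls and raised by the drug in CF mice.

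**Figure D5:**
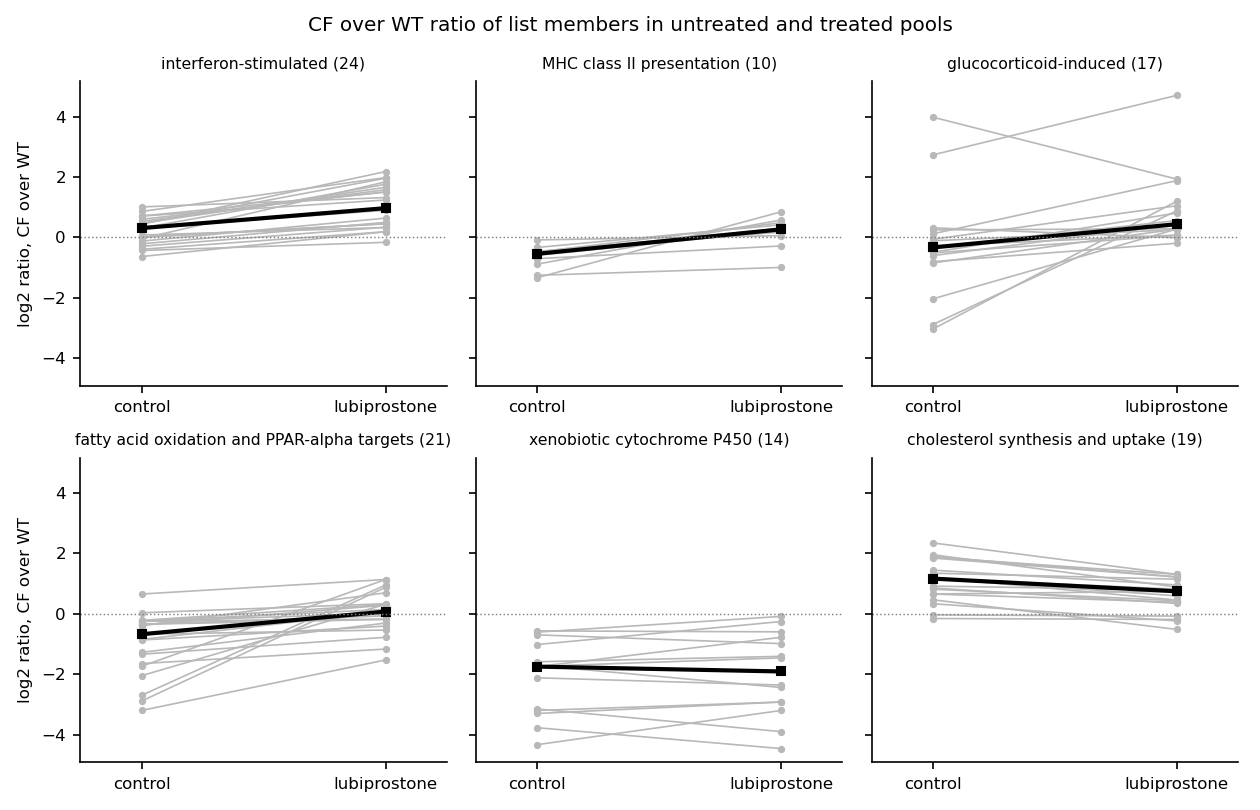
Log2 ratios of CF over WT for the members of 6 gene lists in the control and in the lubiprostone pools, with 1 grey line per gene and the median in black. All 24 interferon-stimulated and all 10 MHC class II genes have a larger ratio in the treated pair, as do all 21 of fatty acid oxidation and PPAR-alpha, whereas the P450 median is −1.74 in the control and −1.90 in the lubiprostone pools and 18 of the 19 cholesterol genes have a smaller ratio in the treated pair, as 48.7% of all genes do.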

How the data were processed

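Total RNA of the entire small intestine was pooled by group and hybridized to Affymetrix Mouse430 2.0 arrays, 1 per group. The deposited values are intensities (signals), linear and in arbitrary units, 1 for each of 45101 probe sets on each array. The authors made them with GCOS, and the submitters' processing notes also name MAS5 (versions are not given in the sources used here). The mean without the top and bottom 2% of values was 500.0 on each array, so the arrays had been scaled alike, and the deposited intensities were used without further normalization. The table holds no detection calls.

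Of the probe sets, 34958 carry 1 gene symbol, 932 several and 9211 none in the platform annotation used. Symbols were updated by gene identifier for 34754. Those with several entered no count. In the treated pair 20637 probe sets were kept, and 5237 of the genes had more than 1. Folds are ratios of signals. Signals shown for a gene are means over its kept probe sets, while its ratio is the mean of their log2 ratios. The ratio of the untreated pair was taken over the same probe sets, except for counts of genes at 3-fold in both pairs, where each pair was filtered by itself.

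With 1 array per group there was no test and no interval, and the number of arrays limits the precision. The genes named are the 15 highest and 15 lowest ratios among bright genes with all probe sets in 1 direction, Cftr, genes of the study's tables, up to 4 of the brightest members of each of 48 gene lists and any member at 3-fold, genes at 3-fold in opposite directions in the 2 pairs, and sex-linked genes. Others, such as Pdk4, Sgk1, Zbtb16, Acot1, Ubd and Plat, were chosen after their values were seen. The members, lists and thresholds were chosen with earlier results of these data known. Alternatives were 2 other scalings, 2 other filters, dim signals set to the median, 2 other ways to combine probe sets, and counts of probe sets. The steps were tested on simulated data. Promoter sequences are those of RefSeq (GRCm38.p6). Python 3.11, numpy 2.4.6, pandas 2.3.3 and matplotlib 3.10.9 were used.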

Additional observations from a re-analysis of the deposited data

Results flagged for a closer look

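The genes and the list below had CF over WT ratios on opposite sides of 1 in the treated and in the untreated pools, at least 2-fold each way for the genes. With 1 array in each group the difference between the pairs was not tested. Given as log2 ratios in the treated and then the untreated pair, Apc2 was at −1.95 and 2.05, Cacng2 at −1.86 and 2.69, and Pigs at −1.72 and 1.78. Rmi2 was at 2.10 and −1.06, and Ano1, which encodes a calcium-activated chloride channel, at −1.25 and 2.01. Sesn2, a stress gene of the amino acid starvation list, was at 1.30 and −1.42.

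In each of these 6 genes the lower treated signal was below the median of its array. Ano1 had probe sets at −3.20 and 0.70 in the treated pair, which point in opposite directions. Angptl4, an inhibitor of lipoprotein lipase and a PPAR target, was at 1.14 and −1.73, with 1707 in the treated CF pool, 777 in the treated WT pool, 274 in the CF control and 906 in the WT control pool. Zbtb16, a transcription factor that glucocorticoids induce, was at 1.20 and −3.03, with 767, 301, 111 and 359 in the same order. For the MHC class II list the median was 0.27 in the treated and −0.54 in the untreated pair.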

How the results depend on the processing

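The counts at 3-fold depended mainly on how dim probe sets were treated. Without a filter, 873 genes were higher, 950 lower and 426 at 3-fold in both pairs. With a filter at the 75th percentile these were 62, 61 and 77, and reading dim signals as the median gave 62 higher and 61 lower. Counted as probe sets, 240 were lower. Scaling both arrays to the same median gave 163 higher and 141 lower, and quantile normalization 164 and 148. No named gene at 3-fold and no list counted as mostly higher or mostly lower had the other sign under these alternatives. Among the rest, 71 named genes had the other sign under at least 1 of them, as had the medians of 4 lists. These were the mast cell list (−0.01 with dim signals at the median against 0.54), the iron handling list (−0.15 with the filter at the 75th percentile against 0.30), and the cell cycle and gasdermin lists, whose medians lay near 0 throughout. Of 80 named genes at 3-fold, 14 were under 3-fold with dim signals at the median, 4 with the brightest probe set alone and none under either scaling. The median of the acute phase list was 0.19 with the filter at the 75th percentile against 0.99 as reported, and the gastric list's median was −0.40 without a filter against −0.95. No paired analysis was possible because each group is 1 array.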

Other observations

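Probe sets listed for several genes were left out of all counts, and 9 bright ones were at 3-fold in the treated pair. One shared by Gml and Gml2, genes of the Ly6 family, was 13.4-fold higher at 3097 against 232. Those shared by Gsdmc2 with Gsdmc4 and with Gsdmc were 6.36-fold and 4.93-fold higher, on the side of the probe set specific for Gsdmc2. The first had 4986.7 in WT control, 33581.5 in CF control, 925.5 in WT + lubiprostone and 5885.5 in CF + lubiprostone. The second had 754.5, 16305.1, 160.8 and 793.1 in that order. In both, the treated WT pool was the lowest and the treated CF pool was near the WT control. The trypsin genes Try5 and Try4 were 4.91-fold higher together, with 6325 in WT control, 10307 in CF control, 407 in WT + lubiprostone and 1997 in CF + lubiprostone, an order like that of the acinar enzymes. The interferon-induced GTPases Tgtp1 and Tgtp2 were 3.36-fold higher at 1925 against 573.5.

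Of the others, the probe set of the immunoglobulin segments Igkv4-55 and Igkv4-68 was 3.90-fold higher and that of Gm7367 and Ubald2 3.38-fold higher. Those of the steroid dehydrogenases Hsd3b2, Hsd3b3 and Hsd3b6 and of Snurf and Snrpn were 4.96-fold and 4.67-fold lower. Hmox1, heme oxygenase 1, was at least 3.69-fold higher at 452 against 109, while ferritin (Fth1) was at a log2 ratio of −0.04.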
